A study of Mus musculus with 6 samples.

Results

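Interferon Muller nuclei were Muller glia nuclei with at least 2 of 8 interferon-induced transcripts detected, and 390 of them were found among 3334 Muller nuclei and 56205 retinal nuclei. Each of the 390 had more than 500 UMIs, at least 200 detected genes and less than 5% mitochondrial UMIs, where a UMI (unique molecular identifier) counts 1 captured transcript molecule. A Muller nucleus had at least 2 UMIs of Abca8a, a UMI of at least 3 of the 6 genes Rlbp1, Glul, Slc1a3, Aqp4, Ano1 and Kcnj10, and no UMI of the cone gene Pde6c or the bipolar cell gene Trpm1. An interferon Muller nucleus had in addition a UMI of at least 2 of Ifi204, Ifi211, Rsad2, Iigp1, Gbp2, Gbp4, Gbp5 and Cxcl10. The 2147 Muller nuclei with none of these 8 transcripts served as the comparison, and the 797 nuclei with exactly 1 of them belonged to neither kind. Members were thus 11.7% of Muller nuclei and 0.694% of all nuclei.

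The nuclei came from whole retinas of rd10 mice (strain B6.CXB1-Pde6b-rd10/J), which carry a mutation in the rod phosphodiesterase gene Pde6b and lose their rods after birth, and every library in both groups shared this genotype. Retinas received 20 ng of recombinant IL-27 or saline by intravitreal injection at P18 and were frozen at P20, with 3 libraries in each group. The saline control libraries carry the labels 1, 2 and 6 and the IL-27 treated libraries 4, 5 and 10, and 10x Genomics 3′ single-nucleus RNA-seq gave 8968 to 9965 barcodes and 36678332 to 48260748 UMIs per library, with median UMIs per nucleus of 2898 to 3959. Pairs of libraries shared between 18 and 30 barcodes. Muller nuclei numbered 1848 in the saline control and 1486 in the IL-27 treated libraries, and 183 and 207 of them were interferon Muller nuclei.

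Muller glia span the thickness of the retina, where they recycle glutamate, buffer potassium and water and support photoreceptors. Type I and type II interferons act through JAK kinases and STAT factors, which enter the nucleus and switch on genes that restrict viruses, load MHC class I molecules and form GTPase coats on intracellular pathogens. IL-27 is a cytokine of the IL-12 family that binds Il27ra and Il6st (gp130) and likewise signals through STAT factors.

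The 8 genes of the rule belong to several of these classes. Rsad2 encodes viperin, an antiviral enzyme that makes a chain-terminating nucleotide, and Iigp1, Gbp2, Gbp4 and Gbp5 encode interferon-inducible GTPases. Ifi204 and Ifi211 are PYHIN family genes, whose products include sensors of DNA, and Cxcl10 encodes a chemokine for activated T cells. Interferon-stimulated response elements, bound by complexes of STAT and IRF factors, contain the letters GAAANNGAA on one strand or TTCNNTTTC on the other. RefSeq promoters (GRCm38.p6, from 250 bases before to 50 bases after each annotated start) were at hand for 5 of the 8 genes, and all 5 held this core, against 8.56% of 32851 promoters of all genes. The stretches around the core are shown because the nuclei were chosen on these transcripts, and capitals mark the core, printed 5′ to 3′ on the strand of the gene.
Rsad2, chr12:26456548-26456586, minus strand: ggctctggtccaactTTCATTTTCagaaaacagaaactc
Ifi211, chr1:173913060-173913098, minus strand: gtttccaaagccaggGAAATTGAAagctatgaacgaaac
Gbp2, chr3:142620590-142620628, plus strand: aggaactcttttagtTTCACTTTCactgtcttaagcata
Gbp5, chr3:142496755-142496793, plus strand: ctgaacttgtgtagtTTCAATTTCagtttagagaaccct
Cxcl10, chr5:92349079-92349117, minus strand: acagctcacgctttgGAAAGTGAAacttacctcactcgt
The first base of the core lay 119 bases upstream of the annotated start in Rsad2, 37 in Ifi211, 58 in Gbp2, 164 in Gbp5 and 213 in Cxcl10. Such a match describes the letters only.

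Rsad2 was the transcript most often detected in the interferon Muller nuclei, with a UMI in 83.8% of them and up to 44 UMIs in 1 nucleus. Iigp1 was detected in 49.0%, Gbp5 in 38.7%, Gbp2 in 37.9%, Gbp4 in 34.1% and Ifi204 in 30% of members. Cxcl10 and Ifi211 were the rarest, in 15.9% and 7.95%. These shares describe the values that chose the members, so no test was made on them. Rsad2 was found in 77.1%, 78.7% and 84.6% of members in saline control libraries 1, 2 and 6 and in 83.9%, 86.3% and 92.6% of members in IL-27 treated libraries 4, 5 and 10. Rsad2 therefore led the selection in every library. Rsad2 and Iigp1 occurred together in 165 members (42.3%), Rsad2 and Gbp5 in 124, Rsad2 and Gbp2 in 121 and Rsad2 and Gbp4 in 109.

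**Figure D1:**
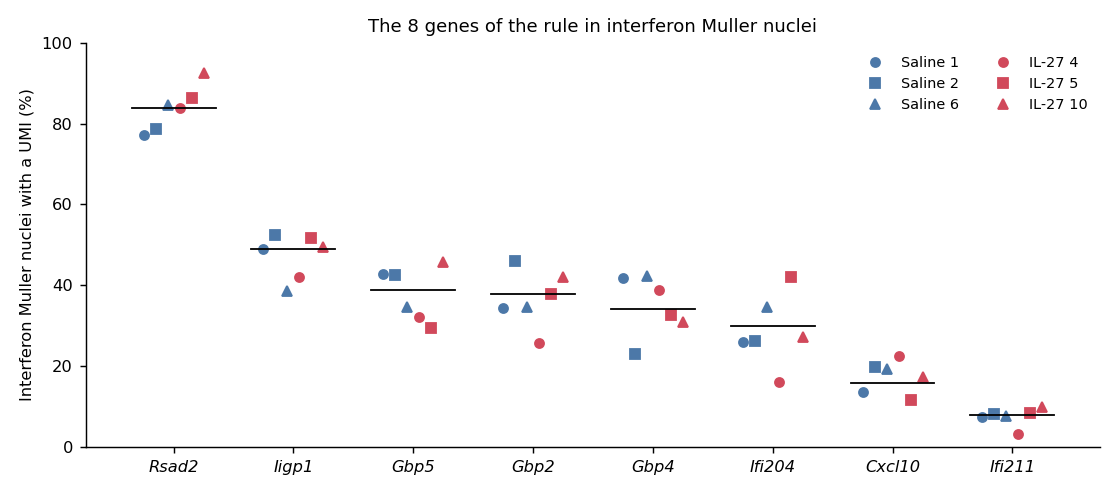
Percentage of interferon Muller nuclei with a UMI of each of the 8 genes of the rule (vertical axis), with 1 point per library, saline control in one colour and IL-27 treated in the other, and a black line at the share over all 390 nuclei. Rsad2 stands highest in all 6 libraries and Ifi211 is found in 7.95% of nuclei.

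Most members stood close to the threshold. Exactly 2 of the 8 transcripts were found in 214 members (54.9%), 3 in 76, 4 in 47, 5 in 22, 6 in 14, 7 in 14 and all 8 in 3, and just outside the rule stood the 797 nuclei with 1. For the Muller conditions, 52 members had exactly 2 Abca8a UMIs and 75 had exactly 3 of the 6 genes, while 50 nuclei with 1 Abca8a UMI met every other condition. The condition on Pde6c and Trpm1 left out 1475 nuclei, 200 of which had 2 or more of the 8 transcripts. The median Abca8a count was 6 UMIs in members and in nuclei without the 8 transcripts.

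The Muller genes of the rule were present in both kinds of nuclei. Levels here are CPM, the UMIs of a gene per 1000000 UMIs of all genes, summed over the nuclei of 1 kind. Abca8a, an ABC transporter gene enriched in Muller glia, was at 1229 CPM in members and 1595 CPM in nuclei without the 8 transcripts. Glul (glutamine synthetase) was at 738 and 1086 CPM, Rlbp1 (the retinoid carrier CRALBP) at 285 and 360 CPM, and Ano1 (a chloride channel) at 246 and 352 CPM. Slc1a3 (the glutamate transporter GLAST) was at 1224 and 1070 CPM, Aqp4 (the water channel) at 621 and 477 CPM and Kcnj10 (the potassium channel Kir4.1) at 104 and 106 CPM. These genes took part in the choice of the nuclei and were not tested.

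The share of Muller nuclei that were interferon Muller nuclei varied widely between libraries of the same group. In the saline control libraries 1, 2 and 6 it was 13.7% (96 of 699, exact 95% binomial interval 11.3 to 16.5), 10.8% (61 of 565, 8.36 to 13.7) and 4.45% (26 of 584, 2.93 to 6.46). In the IL-27 treated libraries 4, 5 and 10 it was 5.44% (31 of 570, 3.72 to 7.63), 17.6% (95 of 539, 14.5 to 21.1) and 21.5% (81 of 377, 17.4 to 26.0). The groups overlapped, since IL-27 treated library 4 lay below 2 of the saline control libraries, and in the order of shares the intervals of neighbouring libraries overlapped, except between IL-27 treated library 4 and saline control library 2. The mean share was 9.66% ± 4.74 (SD, n = 3) with saline and 14.8% ± 8.38 (SD, n = 3) with IL-27, a difference of 5.19 percentage points that was within the spread between libraries (two-sided exact permutation p = 0.4, where 3 against 3 libraries cannot go below 0.1). Without IL-27 treated library 4 the difference was 9.89 points, and without library 10 it was 1.87 points. All intervals cover counting error only.

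**Figure D2:**
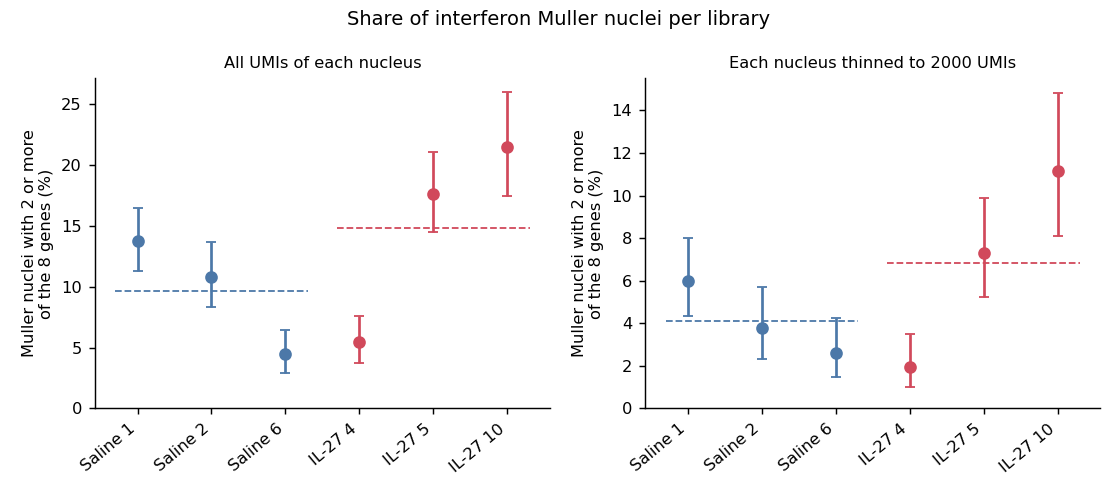
Share of Muller nuclei with 2 or more of the 8 transcripts (vertical axis, percent) in each of the 6 libraries, with the nuclei as deposited on one panel and thinned to 2000 UMIs on the other, and bars for exact 95% binomial intervals. Saline control library 6 and IL-27 treated library 4 are low in both panels, so the groups overlap.

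Depth entered the selection, since a nucleus with more UMIs has more chances to hold 2 of the 8 transcripts. The median was 5575 UMIs in members (4867 to 6065 over the libraries), 4856 in nuclei with 1 of the 8 and 4429 in nuclei without them. After each Muller nucleus was thinned to 2000 UMIs, which left out 52 shallower nuclei, the shares were 5.97%, 3.76% and 2.61% in the saline control libraries 1, 2 and 6 and 1.96%, 7.32% and 11.1% in the IL-27 treated libraries 4, 5 and 10. The thinned means were 4.11% ± 1.71 and 6.81% ± 4.61 (SD, n = 3 each), and the groups again overlapped (exact permutation p = 0.5). Mitochondrial UMIs had a median of 0.232% in members and 0.275% in nuclei without the 8 transcripts. The 8% of nuclei with the highest Scrublet doublet score in each library were marked as doublets. This mark fell on 8.46% of members and 10.9% of nuclei without the 8. In saline control library 6 the order was the other way, with 23.1% of members and 13% of nuclei without the 8 marked.

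Cell classes set apart by their own markers gave a measure of background for the rule. Nuclei of these other classes had no UMI of Abca8a and did not reach the marker threshold of a second class, rods not counted. Muller nuclei were kept whether or not they held markers of microglia or endothelial cells, so the classes were not built alike. Bipolar nuclei, with a median of 4658 UMIs against 4639.5 in Muller nuclei, had 2 or more of the 8 transcripts in 0.959% of 10221 nuclei (exact 95% interval 0.779 to 1.17), and Muller nuclei had them in 11.7% (10.6 to 12.8). Amacrine nuclei, with a median of 6297.5 UMIs, reached 0.617%, rods 0.469% at 1415 UMIs and cones 0.331% at 2592 UMIs. Microglia reached 26.9% at 2439 UMIs and endothelial nuclei 35.4% at 2361 UMIs. With every nucleus thinned to 1000 UMIs the shares were 2.82% in Muller nuclei, 13.1% in microglia, 15.4% in endothelial nuclei, 0.208% in rods, 0.0788% in bipolar, 0.0611% in cones and 0.0199% in amacrine nuclei. Before thinning, the share in Muller nuclei was above that of each of these neuron classes in every library. It was below that of microglia and of endothelial nuclei in every library. The intervals count nuclei that share 6 libraries, and the shares describe the transcripts that chose the members.

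The classes also differed in which of the 8 transcripts they held. Ifi204 was at 296 CPM in microglia and 16.5 CPM in all Muller nuclei, and Iigp1 was at 246 CPM in endothelial nuclei and 33.0 CPM in Muller nuclei. Rsad2 was at 96.5 CPM in Muller nuclei, 85.1 CPM in microglia and 141 CPM in endothelial nuclei, against 14.4 CPM in bipolar nuclei. Gbp2 was at 21.6 CPM in Muller nuclei and 9.99 CPM in microglia, and Gbp5 at 23.8 and 14.6 CPM.

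Transcripts of other cells were therefore compared between members and the nuclei without the 8 transcripts. The 14 microglia markers summed to 289 CPM in members (218 to 511 CPM over the libraries) and 237 CPM in nuclei without the 8 (213 to 306 CPM), and 2 or more of them were found in 21.3% and 15.8% of nuclei. P2ry12 was the highest of them, at 121 and 150 CPM, and 11 of the 14 markers were higher in members. Ptprc, the leukocyte gene CD45, was at 20.2 and 2.10 CPM and Inpp5d at 16.4 and 0.858 CPM, from 9 and 10 members with a UMI, against 762 and 625 CPM in microglia. Without P2ry12 the microglia markers summed to 179, 230 and 383 CPM in members of saline control libraries 1, 2 and 6 and to 83.2, 151 and 83.7 CPM in members of IL-27 treated libraries 4, 5 and 10, against 76.0 to 111 CPM in nuclei without the 8. Their summed level in members was thus highest in library 6, while the share of members with 2 or more of the 14 was highest in library 4 (29.0%, against 16% to 25% in the others). The 11 endothelial markers summed to 1214 and 1293 CPM, nearly all of it Flt1, and without Flt1 to 494 CPM in members of IL-27 treated library 4, 7.92 to 48.5 CPM in members of the other libraries and 15.3 to 38.6 CPM in nuclei without the 8. Library 4 thus stood apart through a few members with endothelial transcripts. Leaving out the nuclei with 2 or more microglia or endothelial markers kept 281 members and 1670 nuclei without the 8, and in these the sums without P2ry12 and Flt1 were 36.7 and 41.3 CPM for microglia and 1.93 and 0.784 CPM for endothelial markers. The 6 astrocyte markers summed to 368 and 336 CPM, and 2 or more of them were found in 30.8% and 19.0% of nuclei. Shares of nuclei with 2 or more markers rise with depth, which was greater in members (median 5575 against 4429 UMIs). How much of these gaps, for microglia or astrocyte markers, came from depth was not tested. Bmpr1b was the highest of them, at 267 and 248 CPM, and Pax2 had 0 UMIs in members and 1 in nuclei without the 8. The 12 macrophage and lymphocyte markers summed to 4.62 and 3.91 CPM. The 7 cone markers summed to 128 and 90.6 CPM, of which Cngb3 made up 82.7 and 24.3 CPM. Every cone marker apart from Cngb3 was lower in members than in nuclei without the 8. The 8 rod markers summed to 479 and 508 CPM and the 8 bipolar markers to 339 and 498 CPM. Of the 4 microglia markers and 1 endothelial marker deep enough to test, none passed the test described next. Counts without the nuclei that held 2 or more microglia or endothelial markers, or 2 or more markers of a neuron class, are given beside the values below.

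To ask what else differed in these nuclei, UMIs of members and of nuclei without the 8 transcripts were summed per library and compared by the quasi-likelihood test of edgeR (Benjamini-Hochberg adjusted over 8757 genes), with library as a block and the rule's own genes left out. In interferon Muller nuclei 248 genes were higher (2.83% of those tested) and 56 were lower (0.639%), together 3.47%. Of the higher genes 211 were higher in all 6 libraries, with log2 fold changes from 0.22 to 4.15 and a median of 1.01. The lower genes had a median of −0.71, and 51 were lower in all 6 libraries. The median over all genes tested was −0.01. A gene could reach the count filter, 10 counts or about 13.5 CPM in 6 of the 12 sums, with the help of members that were high, which favours a rise. A gene low in members could also reach the filter with the help of comparison nuclei that were high, which favours a fall and also holds for the genes counted next. Of the 7415 genes that reached it in all 6 libraries of the nuclei without the 8, 200 were higher and 53 lower, and the lists below are counted over these genes. The remaining genes needed the members to reach it, which is written below as reaching the filter through members only. With members and comparison nuclei matched on UMIs 176 genes were higher, 166 of them among the 248, and without nuclei holding microglia or endothelial markers 279 were higher, 211 of them among the 248. Of the 248 genes, 237 lay more than 500 kb from each of the 8 genes, while 11 lay nearer, among them Gbp7, Gbp6 and Ifi203, and Mndal, Gbp8 and Gbp9 overlap a gene of the rule, so that reads of the pair may not be told apart.

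Interferon-inducible GTPases outside the rule were higher in members. Of 14 GTPase genes in the files 8 were tested, and the 3 that reached the filter without the members, Gbp3, Gbp6 and Gbp7, were all higher. All 3 lay within 500 kb of a GTPase gene of the rule, Gbp3 and Gbp7 near Gbp5 and Gbp6 near Gbp4. Whether their reads can be told apart from those of the rule's own Gbp genes was not tested. The 14 genes summed to 1020 CPM ± 132 in members and 291.5 CPM ± 87.6 in nuclei without the 8 (SD, n = 6 libraries). Gbp7, a guanylate-binding protein gene, was at 227, 203 and 121 CPM in members of the saline control and 166, 192 and 187 CPM in members of the IL-27 treated libraries, against 46.3, 40.1 and 28.5 CPM and 38.3, 47.1 and 58.5 CPM in the nuclei without the 8. The 2 kinds of nuclei did not overlap for Gbp7 (log2 fold change 2.13 ± 0.13 (SE), adjusted p = 6.05e-09). Gbp6 rose by a log2 fold change of 1.84 ± 0.13. Gbp8, which overlaps a gene of the rule, was at 94.6 CPM ± 26.5 and 16.4 CPM ± 6.19, and it reached the filter through members only, as did Gbp9, Gbp10, Irgm1 and Irgm2. The same held for both PYHIN genes tested of 11 in the files. Ifi203 was at 57.7 CPM ± 29.6 in members and 2.89 CPM ± 1.38 in the others, and Mndal at 45.6 CPM ± 13.4 and 2.65 CPM ± 1.39, which is given as a description. The PYHIN genes are close copies of each other, so their counts are uncertain.

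Antiviral effectors formed the largest group that rose. Of 73 genes in the files 29 reached the filter without the members, and 24 of these were higher and none lower, with a median log2 fold change of 1.39. The 73 genes summed to 7422 CPM ± 731 in members and 2615 CPM ± 541 in nuclei without the 8 (SD, n = 6). Counted with those that reached the filter through members, 39 of 44 were higher, 36 of 42 after matching on UMIs and 40 of 44 without nuclei holding microglia or endothelial markers. Herc6, a ligase that attaches the ubiquitin-like protein ISG15, was at 771 CPM ± 104 in members and 196 CPM ± 49.7 in the others (log2 fold change 2.01 ± 0.13, adjusted p = 1.15e-08). Parp14, an ADP-ribosyltransferase, was at 372 CPM ± 36.7 and 95.2 CPM ± 15.6 (1.98 ± 0.11, adjusted p = 5.68e-09), and Parp9 and Parp12 of the same family each rose by 1.71. Rnf213, a large ubiquitin ligase that is in none of the lists, was at 901, 892 and 1035 CPM in members with saline and 910, 840 and 833 CPM with IL-27, against 292, 245 and 158 CPM and 223, 339 and 303 CPM in the nuclei without the 8. Its levels in the 2 kinds were apart in every library (log2 fold change 1.84 ± 0.13, adjusted p = 2.76e-08). The 12 genes with the smallest p also held Gm4951 (2.44 ± 0.16) and A930037H05Rik (1.53 ± 0.10).

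Sensors of foreign nucleic acid rose as well. Of 16 in the files 5 were tested, and the 3 that reached the filter without the members, Ifih1, Ddx58 and Tlr3, were all higher. Ifih1 (MDA5, a sensor of double-stranded RNA) was at 245, 261 and 281 CPM in members with saline and 250, 217 and 357 CPM with IL-27, against 79.7, 71.2 and 47.3 CPM and 67.8, 84.5 and 97.1 CPM without the 8. The lowest member library was above the highest library of the comparison (log2 fold change 1.86 ± 0.13, adjusted p = 2.66e-08). Ddx58 (RIG-I) rose by 1.48 ± 0.11 and Tlr3, the endosomal receptor for double-stranded RNA, by 1.32 ± 0.15.

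Stretches of promoters are shown for Gbp7, Ifih1 and Ifi203, because they hold the letters searched for. Other promoters at hand for the 12 named higher genes, those of Herc6, Parp12, Rnf213 and A930037H05Rik and another start of Ifi203, held neither motif. Capitals mark the interferon core as above and, in Gbp7, also the letters TTCNNNGAA, the core of a STAT homodimer site.
Gbp7, chr3:142530215-142530307, plus strand: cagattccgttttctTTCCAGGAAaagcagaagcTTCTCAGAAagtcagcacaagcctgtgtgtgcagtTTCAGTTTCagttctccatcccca
Ifih1, chr2:62646344-62646382, minus strand: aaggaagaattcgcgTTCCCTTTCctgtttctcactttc
Ifi203, chr1:173942504-173942542, minus strand: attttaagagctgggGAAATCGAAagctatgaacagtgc
Searched on both strands, the interferon core was in 59 of 254 promoters of genes higher in members (23.2%), in 7 of 58 promoters of genes lower in members (12.1%) and in 7.17% of the 9015 promoters of all genes tested. The STAT core was in 11.0%, 3.45% and 6.5% of them, and the motifs overlap in 54 promoters. These shares are descriptions, and genes with several starts count once per start.

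Among the signalling genes that rose were Stat2, Jak2 and the interferon regulatory factor genes Irf1 and Irf2. Stat2, a subunit of the complex that type I interferons activate, was at 450, 341 and 390 CPM in members with saline and 318, 357 and 482 CPM with IL-27, against 176, 169 and 98.7 CPM and 148, 207 and 229 CPM in nuclei without the 8. No library of one kind reached the level of the other (log2 fold change 1.22 ± 0.12, adjusted p = 1.50e-06). Jak2, a kinase of the interferon gamma and gp130 receptors, rose by 0.93 ± 0.12. Irf1 and Irf2 rose by 1.42 ± 0.21 and 0.99 ± 0.11. Irf7 was at 65.5 CPM ± 23.6 in members and 24.4 CPM ± 6.99 in the others and reached the filter through members only, while Irf9 did not pass (0.39 ± 0.14, adjusted p = 0.169) and Stat3 did not pass (0.22 ± 0.13, adjusted p = 0.499). In the signalling list 20 genes reached the filter without the members, 6 of which were higher and none lower, with a median of 0.20.

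The receptor genes did not pass the test. Ifnar1 had a log2 fold change of 0.35 ± 0.25 (adjusted p = 0.63), Ifnar2 of 0.05 ± 0.17, Ifngr1 of 0.06 ± 0.27 and Il6st of 0.01 ± 0.13 (adjusted p = 0.999). Il6st was at 102 CPM ± 17.0 in members and 106 CPM ± 8.88 in the others (SD, n = 6). Il27ra had 0 UMIs in both kinds, which in members (0 of 390 nuclei) allows a share of nuclei with a UMI of up to 0.769%. Socs1 and Socs3 encode feedback inhibitors of this signalling. Socs3 did not pass (−0.11 ± 0.32, adjusted p = 0.959) and Socs1, with 14 UMIs in each kind, was too low to test. No interferon or interleukin gene passed among 4 tested of 21, 3 of which reached the filter without the members. Il15 had a log2 fold change of 0.44 ± 0.12 (adjusted p = 0.0538) and Il33, the alarmin of Muller glia, of −0.14 ± 0.10.

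**Figure D3:**
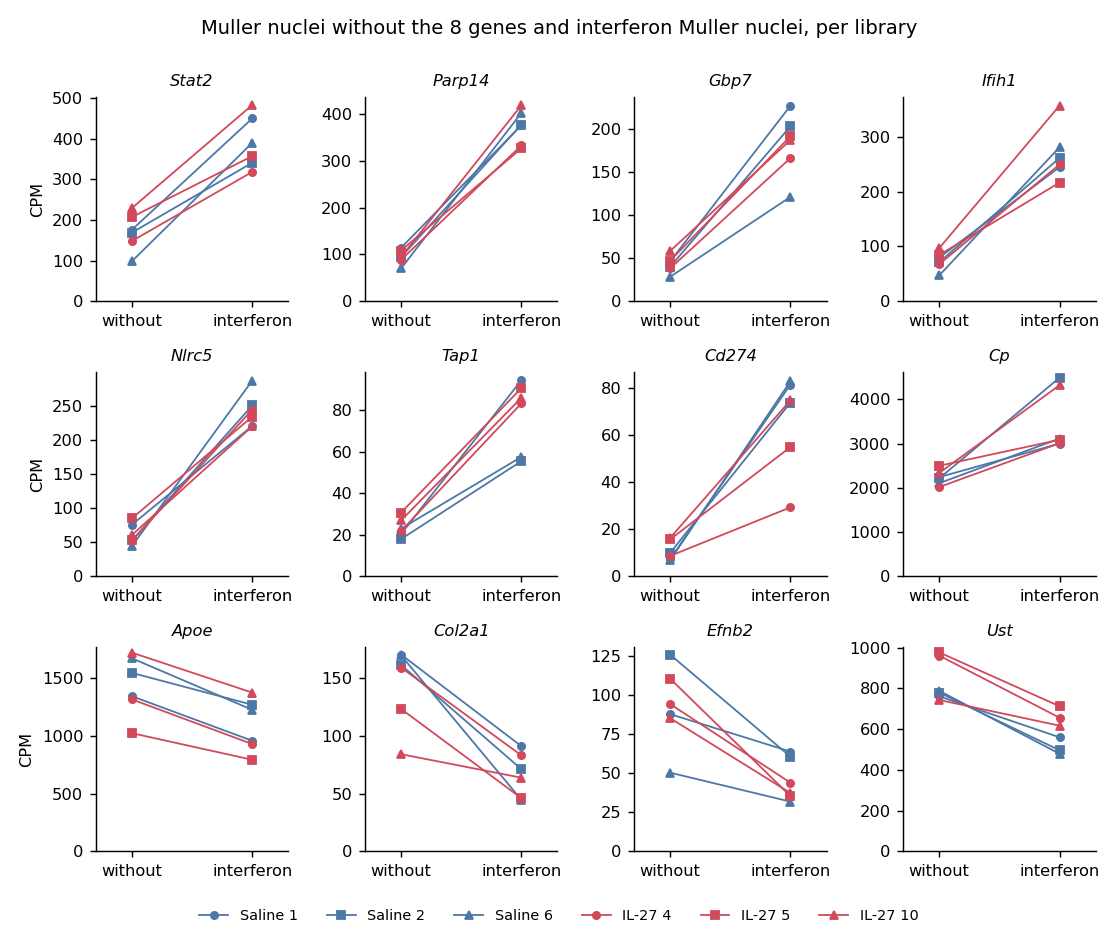
Levels in CPM (vertical axes, each from 0) of 12 genes in Muller nuclei without the 8 transcripts and in interferon Muller nuclei, with 1 line per library joining the 2 kinds. Stat2, Parp14, Gbp7, Ifih1, Nlrc5, Tap1, Cd274 and Cp climb in all 6 libraries, and Apoe, Col2a1, Efnb2 and Ust descend in all 6.

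Genes of MHC class I presentation rose, and those of class II were too low to test. Of 14 class I genes that reached the filter without the members, 10 were higher and none lower (median log2 fold change 0.78). Counted with those that reached it through members, 13 of 20 were higher, 11 of 17 after matching on UMIs and 12 of 18 without nuclei holding microglia or endothelial markers. Their 27 genes summed to 2036 CPM ± 293 in members and 1231 CPM ± 213 in the nuclei without the 8. Nlrc5, the activator of class I transcription, was at 243 CPM ± 25 and 62.0 CPM ± 15.6 (1.99 ± 0.15, adjusted p = 4.75e-08). The peptide transporter genes Tap1 and Tap2 rose by 1.79 ± 0.17 and 1.09 ± 0.15 and the class I gene H2-T22 by 1.76 ± 0.19. H2-T22 belongs to a family of close copies, so its counts are uncertain.

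In the list of cell death and checkpoint genes 6 reached the filter without the members, and 1 of them, Cd47, was higher. Counted with those that reached it through members, 2 of 9 passed, Cd47 and Cd274, and both restrain immune cells. Cd274 (PD-L1) was at 81.6, 73.9 and 83.0 CPM in members with saline and 29.4, 55.0 and 74.9 CPM with IL-27, against 7.41, 10.0 and 6.88 CPM and 8.72, 15.7 and 16.4 CPM without the 8. Every member library was higher than every library of the comparison (log2 fold change 2.67 ± 0.26), but Cd274 reached the filter through members only, so its values are a description. Cd47, the signal against phagocytosis, rose by 0.86 ± 0.10. In complement, 2 of the 3 genes that reached the filter without the members rose, among them the inhibitor Serping1 (0.57 ± 0.13, adjusted p = 0.0162), which was higher in 5 of 6 libraries. Neither tested chemokine outside the rule passed, with log2 fold changes of −0.11 for Ccl25 and 0.29 for Cxcl16.

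**Figure D4:**
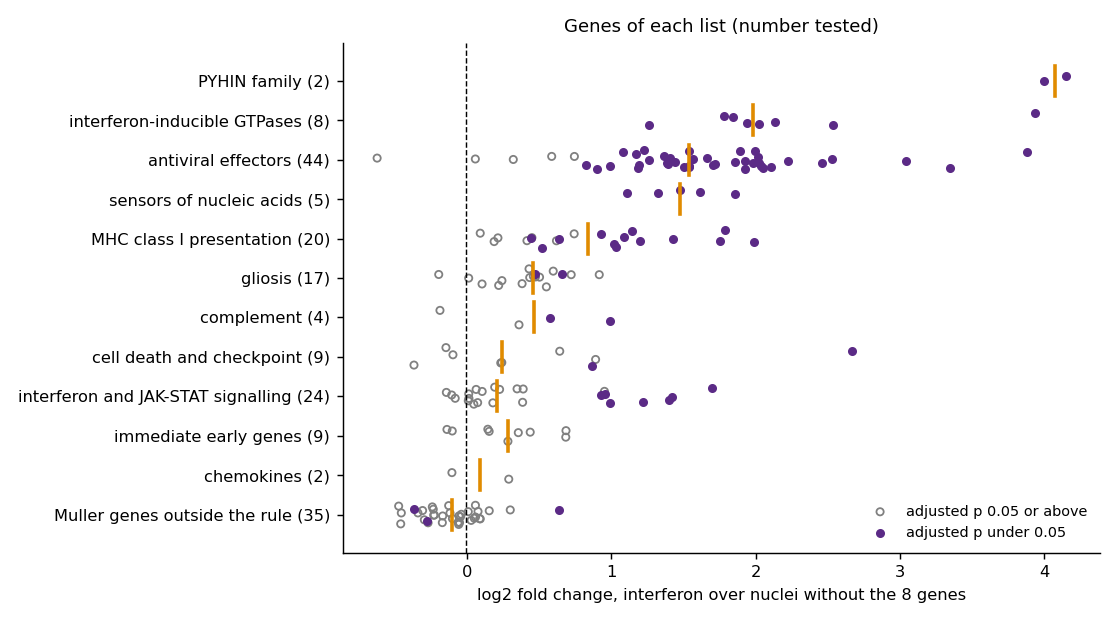
Log2 fold change of interferon Muller nuclei over Muller nuclei without the 8 transcripts (horizontal axis) for each tested gene of 12 lists, with filled points for adjusted p under 0.05, an orange bar at the list's median and a dashed line at the median of all genes. Genes that reached the count filter through members only are included, and the Muller genes outside the rule lie on both sides of the dashed line.

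The state of the glia was read from genes of gliosis, of Muller identity and of acute stress. Of 13 gliosis genes that reached the filter without the members 2 were higher, with a median of 0.47. Cp (ceruloplasmin, a ferroxidase) was at 3001, 4491 and 3116 CPM in members with saline and 3010, 3088 and 4322 CPM with IL-27, against 2244, 2216 and 2106 CPM and 2020, 2501 and 2338 CPM in the others. The 2 kinds were apart in all libraries (log2 fold change 0.66 ± 0.08, adjusted p = 3.01e-05). The hyaluronan receptor gene Cd44 rose by 0.47 ± 0.12 (adjusted p = 0.04). Gfap, the filament gene of reactive glia, had 0.46 ± 0.30 (adjusted p = 0.585), with 0 to 110 CPM in members over the libraries and 28.5 to 44.1 CPM in the others. Gpnmb, looked up after the values were seen, had 0.92 ± 0.26 (adjusted p = 0.0605). Of 33 such Muller genes outside the rule, Crym rose (0.63 ± 0.10), Apoe and Col9a1 fell, and the median was −0.06. None of 9 tested immediate early genes passed, 3 of which reached the filter without the members, and Fos had a log2 fold change of 0.28 ± 0.30.

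The 56 genes that were lower were in none of the interferon lists. Apoe, the main lipid carrier of glia, fell by 0.37 ± 0.06 on the log2 scale (1092 CPM ± 229 in members and 1437 CPM ± 261 in the others, adjusted p = 0.0008), and the collagen gene Col2a1 fell by 1.03 ± 0.15 (66.7 and 145 CPM). Efnb2, a guidance ligand of dorsal retina, was at 64.0, 60.7 and 31.9 CPM in members with saline and 44.0, 35.5 and 37.5 CPM with IL-27, against 88.0, 126 and 50.5 CPM and 94.4, 111 and 85.4 CPM in the others. It was lower in members of each library, although the 2 ranges overlapped (−0.99 ± 0.17, adjusted p = 0.000832). The sulfotransferase gene Ust (−0.47), the adhesion gene Ncam1 (−0.30), Dab1 of Reelin signalling (−0.47), the glutamine transporter gene Slc38a1 (−0.64) and Gm11149 (−0.56) also fell. Nxph1 (8.27 and 63.4 CPM) and Sgcz (17.7 and 70.2 CPM) had the largest falls among the 12 genes with the smallest p, at −2.76 ± 0.36 and −1.85 ± 0.24, and both were too low to test once nuclei with 2 or more markers of a neuron class were left out. In members Nxph1 went down to 2.20 CPM and Sgcz to 6.39 CPM in single libraries, below the level of the filter, so the comparison nuclei helped both to reach it. In the same comparison Gabrg3, a GABA receptor gene, went from −1.30 ± 0.23 to 0.14 ± 0.32, and Slc17a8, a glutamate transporter gene, from −1.09 to −0.38 and no longer passed. Of the 56 lower genes, 42 could be tested there and 18 passed, whereas of the 248 higher genes 228 could be tested and 199 passed.

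Genes of retinal position and the cone gene Cngb3 were looked up after the values were seen. Vax2, a ventral homeobox gene, was at 37.0 and 17.9 CPM (log2 fold change 1.01 ± 0.26, adjusted p = 0.0364). In the comparison nuclei of IL-27 treated library 4 it was at 11.1 CPM, below the level of the filter. Vax2 thus reached the filter through members only, so its values are a description. Its fold was 0.71 ± 0.32 and did not pass after matching on UMIs, and it was 1.25 ± 0.29 without nuclei holding neuron markers and 1.37 ± 0.29 without those holding microglia or endothelial markers, where it passed. Cyp1b1, a retinoid enzyme gene, had 0.89 ± 0.22 (adjusted p = 0.0268), and did not pass after matching on UMIs (0.89 ± 0.26), without nuclei holding microglia or endothelial markers (0.90 ± 0.28) or in DESeq2 (0.87 ± 0.30). Tbx5, a T-box gene of the dorsal retina, had 13 UMIs in members and 120 in the others (5.32 and 11.6 CPM) and was too low to test. Cngb3, a cone channel gene and 1 of the 2 cone markers tested, was at 78.2 and 23.1 CPM (1.86 ± 0.29). Like Gbp8 it reached the filter through members only, so its values are a description. The fold was 1.01 ± 0.34 after matching, where it did not pass, and 1.75 ± 0.27 without nuclei holding microglia or endothelial markers. Without nuclei holding neuron markers it was 3.35 ± 0.35, but Cngb3 is itself 1 of the markers by which those nuclei were left out.

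The level of other interferon genes followed the number of the 8 transcripts found. The 87 GTPase and antiviral genes outside the rule summed to 2778 CPM in nuclei with none of the 8, 3927 CPM with 1, 5674 CPM with 2, 8962 CPM with 3, 11855 CPM with 4 and 15925 CPM with 5 or more. The 31 gliosis genes summed along the same order to 3405, 3819, 4381, 4987, 5694 and 7154 CPM, with single libraries going up and down. Most of this sum was Cp, on average 3505 of 5035 CPM in members and 2238 of 3458 CPM in nuclei without the 8. The 38 Muller genes outside the rule stayed between 20380 and 22423 CPM. Nuclei with 2 of the 8 were above those with 1 in each library for the 87 genes (4698 to 7227 CPM with 2 and 2652 to 5260 CPM with 1). At 5 or more, saline control library 6 and IL-27 treated library 4 had only 3 nuclei each, and in the latter the sum was 8535 CPM. The 87 genes stepped down in library 4 from 7227 CPM with 2 to 6116 CPM with 3. In library 6 they stepped down from 15768 CPM with 4 to 14408 CPM with 5 or more. The steps describe a graded range of nuclei and were not tested.

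**Figure D5:**
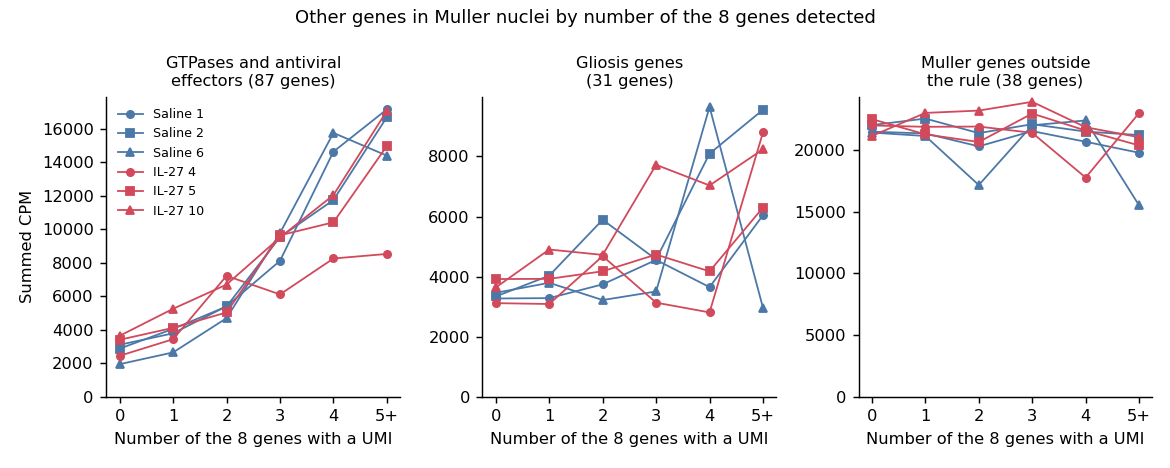
Summed CPM (vertical axes) of 87 GTPase and antiviral genes, of 31 gliosis genes and of 38 Muller genes outside the rule in Muller nuclei with 0, 1, 2, 3, 4 or 5 and more of the 8 transcripts (horizontal axis), by library. The first panel climbs with the number found, from 2778 to 15925 CPM over all libraries. The gliosis genes, whose sum in members is mostly Cp, go from 3405 to 7154 CPM over all libraries but up and down within single ones. The Muller genes stay near their starting level in most libraries.

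Within interferon Muller nuclei IL-27 and saline were compared over 6541 genes in 3 against 3 libraries. By the same edgeR test, again Benjamini-Hochberg adjusted, 1 gene was higher with IL-27 (0.0153% of those tested) and 0 were lower (101 at an unadjusted p under 0.05), and DESeq2 called 2 higher and 0 lower. The 1 gene was Adamts19, a secreted metalloproteinase gene, at 36.8, 60.7 and 38.3 CPM with saline and 191, 181 and 247 CPM with IL-27. The groups did not overlap (log2 fold change 2.18 ± 0.26, adjusted p = 0.00795), and without saline control library 1 the fold was 1.97 and no longer passed. Prss56, a serine protease gene of Muller glia, was at 3.20, 5.28 and 0 CPM with saline and 88.1, 39.1 and 200.5 CPM with IL-27, also without overlap, and did not pass (4.88 ± 0.78, adjusted p = 0.0921).

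The interferon genes of members did not pass between the treatments. Of the lists, 0 of 47 tested antiviral effectors (median log2 fold change −0.06), 0 of 9 GTPases (−0.13) and 0 of 19 class I genes (0.19) passed, against a median of 0.01 over all genes. The antiviral effectors summed to 7499 CPM ± 264 with saline and 7344 CPM ± 1118 with IL-27 (SD, n = 3). Stat2 was at 393 CPM ± 54.6 and 386 CPM ± 85.9 (−0.02 ± 0.19, adjusted p = 1). A p above the threshold does not show equal levels. Members of both groups were also chosen on interferon transcripts, so these values cannot show whether IL-27 changed interferon genes in Muller nuclei as a whole. In nuclei without the 8, 0 of 48 antiviral effectors (median 0.23) and 0 of 8 GTPases (median 0.32) passed. The same limit holds there, since those nuclei were chosen by the absence of interferon transcripts.

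In Muller nuclei without the 8 transcripts 4 of 12346 genes were higher with IL-27 (0.0324%) and 0 lower (198 at an unadjusted p under 0.05), while DESeq2 called 10 higher and 0 lower, and without saline control library 2 no gene was higher. The 4 genes were Adamts19 (2.78 ± 0.34, adjusted p = 0.0146), Prss56 (4.50 ± 0.55, adjusted p = 0.0146), the Wnt receptor gene Ror2 (1.37 ± 0.18, adjusted p = 0.0159) and the calcium pump gene Atp2b4 (0.83 ± 0.12, adjusted p = 0.0486). Both comparisons come from the same 6 libraries. Whether IL-27 differed in its effect between the kinds was tested as an interaction, in which 0 of 8757 genes passed (0%; before adjustment 120 had a p under 0.05 upward and 150 downward, and DESeq2 gave 0). The interaction of Adamts19 was −0.44 ± 0.34 (adjusted p = 1). The median interaction was −0.33 over 44 antiviral effectors and −0.52 over 8 GTPases, against −0.002 over all genes. Both kinds were chosen on interferon transcripts, by their presence or absence. These medians therefore cannot show whether IL-27 acted differently on interferon genes. Adamts19 was lower in members than in the other nuclei as a whole (log2 fold change −0.99 ± 0.15, adjusted p = 0.000333), in 5 of 6 libraries.

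The libraries with few members were also low in interferon genes outside Muller glia. Over all Muller nuclei the 87 GTPase and antiviral genes outside the rule summed to 4158, 3906 and 2441 CPM in the saline control libraries 1, 2 and 6 and to 2991, 4537 and 5601 CPM in the IL-27 treated libraries 4, 5 and 10. In microglia they summed to 5930, 7570 and 4285 CPM with saline and 5133, 6519 and 6683 CPM with IL-27, and in bipolar nuclei to 791, 742 and 487 CPM and 534, 924 and 1166 CPM. Library 6 was the lowest saline control library and library 4 the lowest IL-27 treated library in all these classes. Microglia with 2 or more of the 8 transcripts made up 28.7%, 37.1% and 18.0% with saline and 22.9%, 25.2% and 32.3% with IL-27. What set these libraries apart was not tested.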

How the data were processed

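The authors deposited filtered UMI count matrices, 1 per library. The submitters' processing notes name Cell Ranger 9.0.1 and Seurat 5.2.1, while the matrix headers name Cell Ranger 8.0.1, and the genome build is not given in the sources used here. Nuclei passed the filters of the study (over 500 UMIs, at least 200 genes, under 5% mitochondrial). Nuclei were scored with Scrublet at an expected doublet rate of 8%. The 8% with the highest score in each library were marked as doublets. They were kept, and were left out as an alternative. Only distances between genes came from GENCODE M21 on GRCm38, which held 32158 of 32285 identifiers. UMI counts were summed per library and kind and tested in edgeR 4.0.16 (R 4.3.3, limma 3.58.1) with filterByExpr at 10 counts, TMM and the quasi-likelihood test, library as a block between kinds, threshold 0.05 after Benjamini-Hochberg adjustment, and in DESeq2 1.42.0 as an alternative. Fits were tested on simulated data. Python 3.11.15 with numpy 2.4.6, pandas 2.3.3, scipy 1.17.1, scanpy 1.11.5 and matplotlib 3.10.9 did the rest. Shares were compared by two-sided exact permutation, with exact (Clopper-Pearson) intervals. Named genes were the 12 with the smallest p in each direction between the kinds among those changed the same way in all 6 libraries, up to 4 called genes of each list (or its 2 highest), up to 5 genes called in each direction between treatments and a fixed set of signalling genes. Vax2, Cyp1b1, Tbx5, Gpnmb and Cngb3 were added after the values were seen. Members, lists and tests were chosen with earlier results of these data known. The labels do not say that libraries came from separate animals, so p-values measure the spread between these libraries, which may be technical. Some of the genes the rule names are not reported here.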

Additional observations from a re-analysis of the deposited data

How the results depend on the processing

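No paired analysis was possible because the labels give the saline control and IL-27 treated libraries different numbers. The alternative without nuclei holding neuron markers was chosen after seeing the data. The difference in the share of interferon Muller nuclei was positive in all 14 alternatives, from 1.87 to 9.89 points of Muller nuclei, or 0.0952 points of all nuclei. Its p of 0.2 to 0.8 cannot pass 0.05 with so few libraries and says nothing of stability. The 248 higher genes numbered 176 to 358 in 19 alternatives, all within 1.5 times, and 199 to 265 with 1 library left out. None of them changed direction in any alternative that tested it.

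The 56 lower genes numbered 116 without Scrublet doublets, 121 without nuclei holding microglia or endothelial markers, 94 without nuclei over 2 MAD from the median depth, 142 with at least 3 of the 8 transcripts, 197 without a filter on low counts, 34 without the library block and 30 in DESeq2, and between 32 and 74 with 1 library left out (35 without saline control library 1, 32 without 2, 34 without IL-27 treated library 4, 36 without 10). DESeq2 called 29 of the 56, and matching on UMIs kept 27. Gabrg3 reversed to 0.14 without nuclei holding neuron markers. For all of these the cause was not tested.

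The 1 gene higher with IL-27 in members became 2 without Scrublet doublets, 3 without nuclei holding microglia or endothelial markers, 6 within 2 MAD, 30 without a filter, 2 in DESeq2 and 0 to 2 with 1 library left out. The 0 lower genes became 23 without a filter. In nuclei without the 8 the 4 higher genes became 7 within 2 MAD, 43 without a filter, 10 in DESeq2 and 0 to 6 with 1 library left out (0 without saline control library 2, 1 without 6, 2 without IL-27 treated library 5), and the 0 lower genes became 15 without a filter and 0 to 2 with 1 library left out (2 without IL-27 treated library 10). The interaction gave 5 genes within 2 MAD and 21 without a filter.

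With 3 libraries a group no share can reach an exact p below 0.1, and members were few in saline control library 6 (26) and IL-27 treated library 4 (31).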
